A study of Mus musculus with 8 samples.

Results

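Transcripts of splicing factors and of hnRNPs, the proteins that coat newly made RNA in the nucleus, were measured in striatal RNA from 8 mice that were 22 months old. The set held the genes whose symbol begins with Srsf, Hnrnp, Snrp, Sf3a or Sf3b, or with Rbm and a digit. It came to 83 of the 18193 genes measured, with 10 Srsf, 19 Hnrnp, 9 Snrp, 9 Sf3a or Sf3b and 36 Rbm genes. The rule that picks the genes uses their names. Each gene was read from the probe set with its highest mean level, and 26 probe sets that list such a gene together with another gene were not used.

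The 4 mutant mice were of the CHL2 line, which models Huntington's disease: both copies of the mouse's own Htt gene carry 150 CAG repeats taken from the human gene. Mutants 141, 153 and 154 were female and mutant 191 was male. Of the 4 wild-type mice, 161 was female, while 170, 180 and 200 were male. All 8 were on a C57BL/6 X CBA F1 hybrid background, the labels give no treatment, and each mouse gave 1 Affymetrix GeneChip expression array for the mouse. The knock-in allele is driven by the mouse gene's own promoter, so it is not limited to a cell type. The comparison asks which of these transcripts differ in the striatum of old mice with the expanded repeat.

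Most genes of mammals are interrupted by introns, which the spliceosome removes from each new transcript. Its building blocks are small nuclear ribonucleoproteins, in which a ring of Sm proteins (the Snrp genes hold most of them) sits on a short RNA, and the SF3A and SF3B complexes belong to the U2 particle that marks the intron's branch point. SR proteins (Srsf genes) and hnRNPs bind exons and introns and shift which splice sites are used. The brain uses alternative splicing heavily, and the RNA-binding motif (Rbm) genes are a mixed group named for a shared domain rather than for 1 task. Rbm3os and Rbm46os, which the name rule also takes in, are opposite-strand transcripts named after their neighbouring genes.

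The 8 arrays had like medians (4.95 to 4.98, log2), which the normalization of the deposited values brings about, so they are no check of the arrays. The lowest correlation between mice of the same genotype was 0.990. Wild-type mouse 170 stood apart in the control probe sets that read RNA integrity. Its 3' minus 5' difference for Gapdh was 1.37 on the log2 scale, against 0.32 to 0.43 in the other 7 mice, and for beta-actin 2.65 against 1.23 to 1.51. The groups as such did not differ in either measure by a two-sided exact permutation test (p = 0.83 and 0.486, the smallest possible being 0.0286). The tissue label was checked against 9 measured markers of striatal projection neurons. Averaged per mouse on the log2 scale, they lay at 9.68 to 9.92 in the mutants against 11.26 to 11.42 in the wild type, and 9 of 9 fell. In bulk tissue, fewer cells of a type and less RNA per cell cannot be told apart. General neuron markers had 2 of 10 higher and none lower (mean level 10.99 to 11.14 in mutants, 10.79 to 10.93 in wild type). Astrocyte markers had 2 of 10 higher, oligodendrocyte markers 1 of 9 higher and 1 of 9 lower, precursor markers 1 of 6 higher, and microglial markers 0 of 10 changed. Endothelial markers had 1 of 9 lower (mean level 6.66 to 6.80 in mutants, 6.90 to 7.12 in wild type) and choroid plexus or ependymal markers 1 of 6 lower. The part of these markers in the results on splicing genes was not tested.

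Of the 83 genes, 6 were higher and 1 was lower in the mutants at an adjusted p under 0.05 (limma with genotype and sex as terms, Benjamini-Hochberg over all genes). The genes that rose were Snrpa1, Snrpb, Sf3b6, Rbm27, Srsf12 and Srsf3, and the gene that fell was Hnrnpdl. The 7 changed genes were 8.43% of the set, a smaller share than the 12.4% of all 18193 genes that changed. By direction, 6.4% of all genes rose and 6.01% fell. Among the 73 members with a mean level of 5 or more, the same 6 rose and 1 fell, beside 9.55% higher and 8.87% lower among all genes at that level. At an unadjusted p under 0.05, 22 members were higher and 7 lower, beside 14% and 11.8% of all genes.

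The changes were small. The log2 change over the 83 genes ran from -0.36 to 0.57, and none reached 1.5-fold, which 4.17% of all genes passed together with the test. The median log2 change was 0.07, against 0.01 over all genes, and it lay above 0 for 58 of the 83 (69.9%), against 51.2% of all genes. Values of the 4 mutants and the 4 wild-type mice did not overlap in 22 of the 83 genes, or 26.5%, of which 16 were higher in the mutants and 6 lower. Over all genes this share was 20.7%, with 11.4% higher and 9.27% lower. The members were brighter, with a median level of 8.67 against 6.19 over all genes. Neither this share nor that above 0 was computed for genes of matched level. Of the 76 genes that did not pass, 70 had a 95% interval of the change that stayed within 1.5-fold in either direction. The genes that passed also stayed under 1.5-fold, so this bound does not exclude changes of the size called here. At 4 mice a group the median width of the 95% interval over the 83 genes, from its lower to its upper end, was 0.434 on the log2 scale. For 9 genes every value was under 5 (Rbm11, Rbm12b1, Rbm12b2, Rbm20, Rbm3os, Rbm44, Rbm46, Rbm46os and Rbm47), a range where the scale is compressed.

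**Figure D1:**
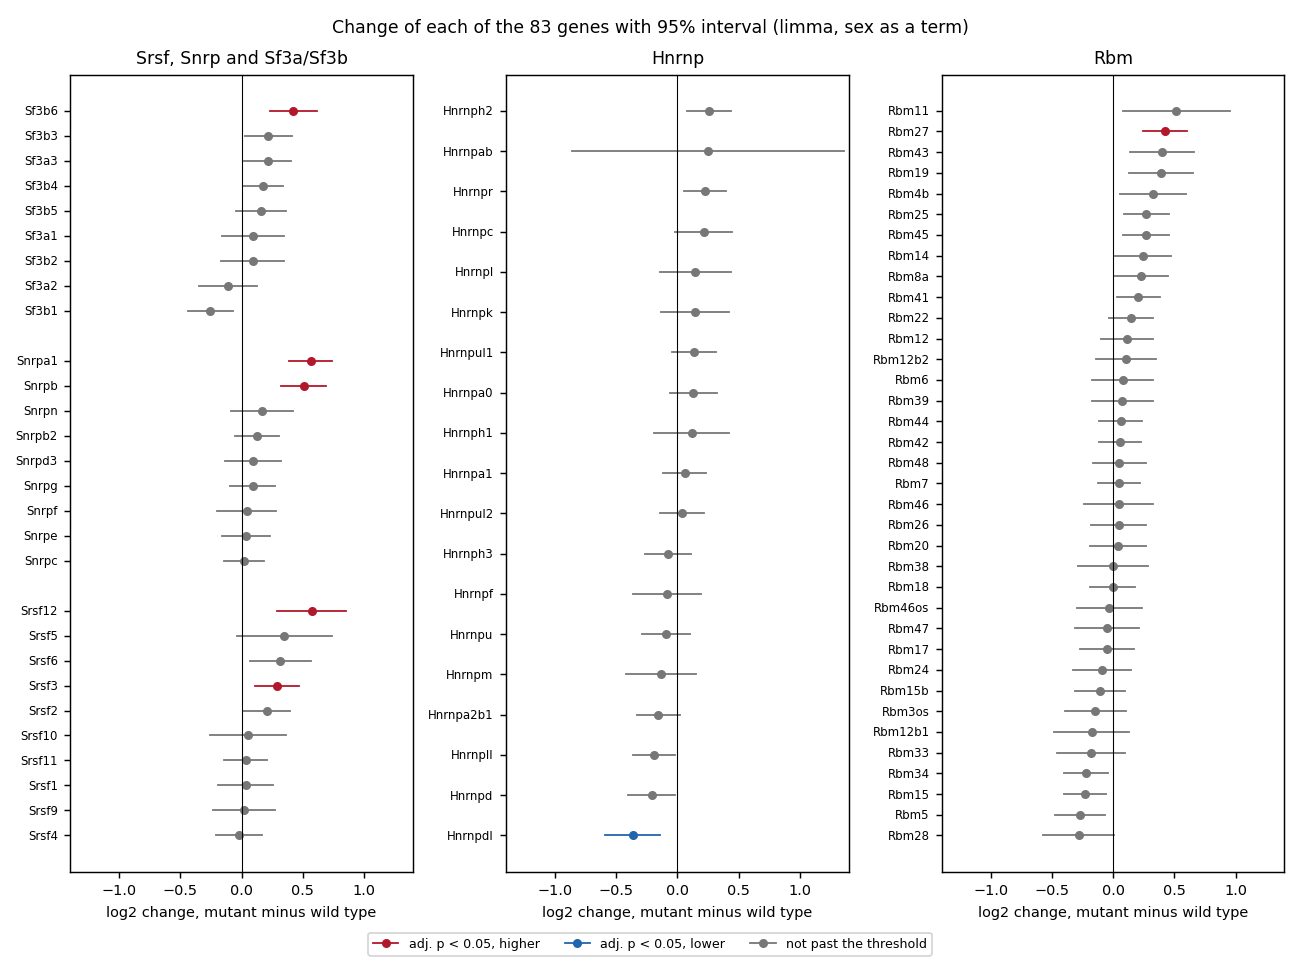
Log2 change of each of the 83 genes, in mutants relative to wild type from the fit with sex as a term, with its 95% interval, in panels by family. Red marks the 6 genes that rose, blue the 1 that fell and grey the 76 that did not pass. Most points lie a little to the right of 0, and no point reaches 1.5-fold.

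The rises with the lowest adjusted p were in Snrpa1 and Snrpb, parts of the spliceosome, followed by Rbm27 and Sf3b6. The name rule itself picks genes of this kind. Snrpa1 codes for the A' protein of the U2 particle. Its log2 level was 8.51, 8.46, 8.52 and 8.89 in mutants 141, 153, 154 and 191, and 7.99, 8.33, 8.19 and 8.29 in wild-type mice 161, 170, 180 and 200. Every mutant was above every wild-type mouse, and mutant 191 was the highest. The sex-adjusted log2 change was 0.56 ± 0.08 (SE, n = 4 and 4), or 1.48-fold, with a 95% interval of 0.39 to 0.74 and an adjusted p of 0.00143 in limma. With genotype alone in the fit the change was 0.40 and the adjusted p 0.0328. With genotype alone and without wild-type mouse 161 or mutant 191 it was 0.33 (adjusted p = 0.083) and 0.30 (0.0639), and the call was lost.

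Snrpb codes for SmB, a member of the Sm ring of most spliceosomal particles. It measured 9.97, 9.96, 9.99 and 10.08 in the mutants and 9.40, 9.74, 9.57 and 9.61 in the wild-type mice. The mutants lay close together and all above the wild-type mice, of which mouse 161 was the lowest. The log2 change was 0.51 ± 0.08 (SE), or 1.42-fold, with an interval of 0.32 to 0.69 and an adjusted p of 0.00315 in limma. Without wild-type mouse 161 the change was 0.44 and the adjusted p 0.0734.

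The other 7 Snrp genes all had a log2 change above 0, against 51.2% of all genes. None of the 7 passed the test, also at an unadjusted p under 0.05. The next in order of adjusted p was Snrpb2, with a log2 change of 0.13 and an adjusted p of 0.390. Snrpe, an Sm ring protein with the highest mean level of the family, had a change of 0.04 with an adjusted p of 0.848. The shared sign depended on the probe set and on 1 mouse. Probe sets of Snrpd3 ran from -0.15 to 0.63, while those of Snrpb2, Snrpc and Snrpg were all above 0. Without wild-type mouse 161 the changes of Snrpd3 and Snrpe were -0.10 and -0.05, and that of Snrpn was 0.08. Snrpn codes for SmN, the form of SmB that prevails in neurons. It measured 7.14, 6.99, 6.85 and 6.69 in the mutants and 6.74, 6.77, 6.62 and 6.42 in the wild-type mice. These ranges overlapped, and the change of 0.17 had an adjusted p of 0.404. SmB and SmN are near-identical proteins, probe sets listed for both Snurf and Snrpn were not used, and binding of 1 transcript to the other's probes was not tested.

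Among the SF3A and SF3B genes, 1 of 9 rose and none fell, beside 6.4% and 6.01% of all genes. A change above 0 was seen in 7 of 9 (median 0.16), against 51.2% of all genes. At an unadjusted p under 0.05 there were 4 higher and 1 lower, beside 14% and 11.8% of all genes. In so small a family these counts are a description. Sf3b6 codes for p14, the subunit that sits next to the branch point. It measured 9.80, 9.89, 9.96 and 10.18 in the mutants and 9.56, 9.61, 9.66 and 9.71 in the wild-type mice. All mutants were above all wild-type mice. The log2 change was 0.42 ± 0.09 (SE), or 1.34-fold, with an interval of 0.23 to 0.62 and an adjusted p of 0.00991 in limma. Without mutant 191 the change was 0.33 and the adjusted p 0.187.

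Sf3b1, the large scaffold subunit of SF3B, had values on the other side. It measured 10.00, 10.15, 10.08 and 9.89 in the mutants and 10.26, 10.17, 10.26 and 10.23 in the wild-type mice. The groups did not overlap, though mutant 153 and wild-type 170 were close. The change of -0.26 had an interval of -0.44 to -0.07 and an adjusted p of 0.0727 in limma, which misses the threshold. Under a trended and robust prior the adjusted p was 0.0191, and with dimmer genes left out 0.0286. On the mean of its probe sets the change was -0.13 (adjusted p = 0.368), without mutant 191 it was -0.18 (0.470), and with genotype alone -0.20 (0.107). Sf3b3, Sf3a3 and Sf3b4, also subunits, had changes of 0.22, 0.21 and 0.18, with adjusted p of 0.133, 0.153 and 0.154. In these 3 genes the groups did not overlap. The other probe set of Sf3b3 was at -0.17 and that of Sf3b4 at -0.16, opposite in sign, while that of Sf3a3 was at 0.49.

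In the SR family, 2 of 10 genes rose and none fell, beside 6.4% and 6.01% of all genes. A change above 0 was seen in 9 of 10 (median 0.13), against 51.2% of all genes. At an unadjusted p under 0.05 there were 4 higher and 0 lower, beside 14% and 11.8% of all genes. In so small a family these counts are a description. Srsf12, an SR-related protein also called SRrp35, measured 6.80, 7.14, 7.08 and 7.20 in the mutants and 6.25, 6.99, 6.69 and 6.74 in the wild-type mice. The groups overlapped: wild-type mouse 170, at 6.99, was above mutant 141. The log2 change was 0.57 ± 0.13 (SE), or 1.49-fold, with an interval of 0.29 to 0.86 and an adjusted p of 0.0145 in limma. Its size rested on wild-type mouse 161, the lowest of the 8 and the only wild-type female. Without that mouse the change was 0.39 with an adjusted p of 0.253, and with genotype alone it was 0.39 with an adjusted p of 0.101.

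Srsf3, the smallest of the classical SR proteins, is active in splicing and in export of mRNA. It measured 9.67, 9.86, 9.76 and 9.47 in the mutants and 9.42, 9.21, 9.24 and 9.25 in the wild-type mice. The groups did not overlap, and mutant 191 was within 0.1 of wild-type mouse 161. The log2 change was 0.29 ± 0.08 (SE), or 1.22-fold, with an interval of 0.11 to 0.47 and an adjusted p of 0.0447. The call was lost when any of 7 of the 8 mice was left out, with adjusted p from 0.0555 to 0.338, and kept only without mutant 141.

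Srsf6, a further classical SR protein, is named here after its values were seen. It measured 9.92, 9.64, 9.95 and 9.89 in the mutants and 9.69, 9.31, 9.45 and 9.47 in the wild-type mice, with mutant 153 just under wild-type mouse 161. Its change was 0.32 with an adjusted p of 0.0987, and it was 0.41 with an adjusted p of 0.00608 when its 4 probe sets were averaged. Without mutant 191 the change was 0.15 with an adjusted p of 0.659. Srsf2 (SC35), a nuclear speckle protein, measured 10.61, 10.42, 10.60 and 10.53 against 10.32, 10.36, 10.42 and 10.26. The groups did not overlap, though mutant 153 and wild-type mouse 180 both round to 10.42, and the change of 0.21 had an adjusted p of 0.168. Srsf5 had the highest mean level of the family and a change of 0.35, with an interval of -0.04 to 0.74 and an adjusted p of 0.244. Srsf1, the founding SR protein, measured 9.82, 9.61, 9.95 and 9.98 against 9.84, 9.80, 9.88 and 9.92. Its groups were interleaved, the change was 0.03, with an interval of -0.19 to 0.26 and an adjusted p of 0.887.

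Among the hnRNPs, 1 of 19 genes fell and none rose, beside 6.01% and 6.4% of all genes. A change above 0 was seen in 11 of 19 (median 0.06), against 51.2% of all genes. At an unadjusted p under 0.05 there were 2 higher and 3 lower, beside 14% and 11.8% of all genes. Hnrnpdl, a nuclear RNA-binding protein related to hnRNP D, measured 11.64, 11.72, 11.56 and 11.54 in the mutants and 11.80, 12.10, 12.07 and 12.14 in the wild-type mice. Every mutant was below every wild-type mouse, and mouse 161 was the closest. The log2 change was -0.36 ± 0.10 (SE), or 1.29-fold lower, with an interval of -0.59 to -0.14 and an adjusted p of 0.0408 in limma. The call was lost when any of 6 of the 8 mice was left out (all but mutant 153 and wild-type mouse 161), and without mutant 191 the change was -0.16 with an adjusted p of 0.525.

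Hnrnpd (AUF1), the nearest relative of Hnrnpdl, had a change of -0.21 with an adjusted p of 0.155. Hnrnph2, which binds runs of G, measured 9.80, 9.78, 9.93 and 9.93 against 9.54, 9.67, 9.72 and 9.76. Every mutant was above every wild-type mouse, and the change of 0.26 had an adjusted p of 0.0655. The core hnRNP proteins that package new transcripts did not pass: Hnrnpa1 had a change of 0.06 (interval -0.12 to 0.24, adjusted p = 0.711) and Hnrnpa2b1 one of -0.16 (interval -0.33 to 0.02, adjusted p = 0.252). Hnrnpk, a binder of C-rich RNA, measured 11.61, 11.63, 11.38 and 11.12 against 11.13, 11.32, 11.27 and 11.13. The mutants spread widely, with mutant 191 at the bottom, and the change of 0.15 had an adjusted p of 0.532.

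Hnrnpab, named after its values were seen, was the gene with the lowest value in mouse 170 relative to the other wild-type mice. It measured 11.32, 12.09, 11.46 and 11.62 in the mutants and 11.84, 9.47, 11.81 and 11.42 in the wild-type mice. Mouse 170 alone was low. The change was 0.25 with an interval of -0.86 to 1.36 in all 8 mice, and -0.11 without mouse 170, with adjusted p of 0.82 and 0.785. Of the 234 probe sets of the 83 genes, 8 were at least 2-fold lower in mouse 170 than in the mean of the other 3 wild-type mice and none was as much higher. They belonged to Hnrnpab, Snrpd3, Rbm39 (with 2 probe sets), Rbm5, Srsf1, Rbm18 and Srsf11, and only that of Hnrnpab was the one representing its gene. By the representing probe sets, 1 of the 83 genes and 48 of all genes (0.264%) were at least 2-fold lower in mouse 170, and 0 and 4 as much higher. Without mouse 170, Snrpa1 (0.58, adjusted p = 0.00262), Snrpb (0.54, 0.00274), Rbm27 (0.41, 0.0137), Sf3b6 (0.41, 0.0175) and Srsf12 (0.63, 0.00856) kept their calls. The changes of Hnrnpdl (-0.35, adjusted p = 0.0651) and Srsf3 (0.29, 0.0625) stayed near those in all 8 mice (-0.36 and 0.29) and no longer passed.

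**Figure D2:**
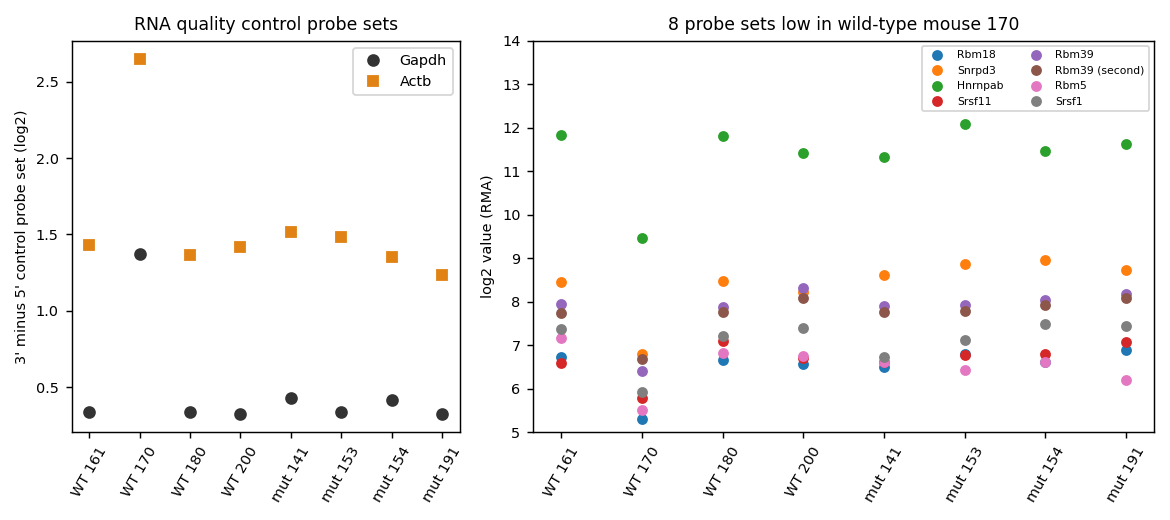
Left, Gapdh and beta-actin controls, 3' level minus 5' level in log2 units, with 1 point for each of the 8 mice. Right, the log2 level of the 8 probe sets that were at least 2-fold lower in wild-type mouse 170 than in the other 3 wild-type mice, with 1 point per mouse. Mouse 170 has the highest control differences, at 1.37 and 2.65, and the lowest value in all 8 probe sets.

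In the Rbm group, 1 of 36 genes rose and none fell, beside 6.4% and 6.01% of all genes. A change above 0 was seen in 22 of 36 (median 0.05), against 51.2% of all genes. At an unadjusted p under 0.05 there were 10 higher and 3 lower, beside 14% and 11.8% of all genes. Rbm27, a zinc finger protein that takes part in the clearance of nuclear polyadenylated RNA, measured 8.76, 8.85, 8.79 and 8.95 in the mutants and 8.48, 8.44, 8.42 and 8.46 in the wild-type mice. The groups were well apart, with the wild-type mice within 0.1 of each other. The log2 change was 0.42 ± 0.08 (SE), or 1.34-fold, with an interval of 0.24 to 0.60 and an adjusted p of 0.00743 in limma. Without mutant 191 the change was 0.33 with an adjusted p of 0.156, and averaged over its probe sets it was 0.10 with an adjusted p of 0.456.

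Rbm43 came next, at 8.24, 8.38, 8.09 and 8.25 in the mutants and 7.67, 8.20, 7.91 and 7.95 in the wild-type mice. Mouse 170 lay among the mutants, and the change of 0.40 had an adjusted p of 0.0503. Rbm5, a splicing regulator of apoptosis genes, measured 9.92, 9.92, 10.11 and 9.88 in the mutants and 10.23, 10.29, 10.07 and 10.21 in the wild-type mice. Mutant 154 and mouse 180 crossed, and the change of -0.28 had an adjusted p of 0.0819. Rbm17 (SPF45), which acts in the choice of 3' splice sites, had a change of -0.05 with an adjusted p of 0.813. The remaining Rbm genes ran from -0.28 in Rbm28 to 0.52 in Rbm11, whose values were all under 5, and none passed the test.

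**Figure D3:**
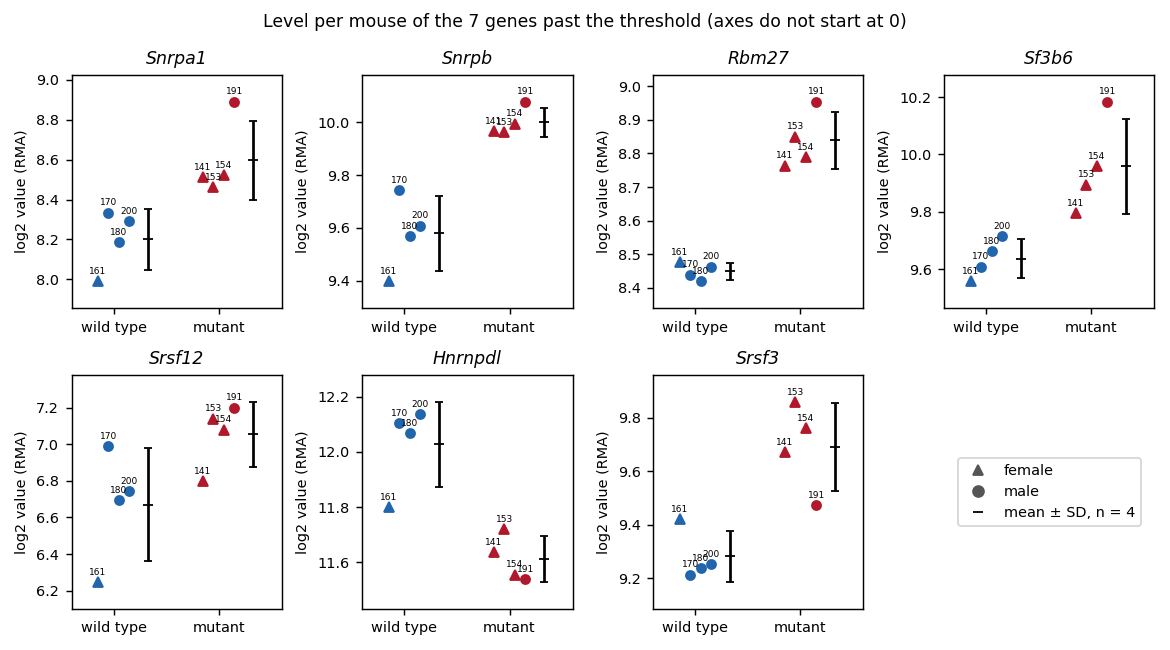
Log2 level of the 7 genes that passed the test in each mouse, with females as triangles and males as circles and the mean ± SD of each group (n = 4). The 4 mutants lie apart from the 4 wild-type mice in all panels except that of Srsf12, where wild-type mouse 170, at 6.99, is above mutant 141, at 6.80.

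Sex was split unevenly between the groups, so the comparison was also read within each sex. The mean of the 3 female mutants minus wild-type mouse 161, and mutant 191 minus the mean of the 3 male wild-type mice, are the 2 values whose mean is the sex-adjusted change. They had the same sign in 7 of the 7 changed genes, which were chosen by that mean, so the shared sign is a description. For Snrpa1 these differences were 0.51 in females and 0.62 in males, for Snrpb 0.58 and 0.44, and for Sf3b6 and Rbm27 alike 0.33 and 0.52. For Srsf12 they were 0.76 and 0.39, for Srsf3 0.34 and 0.24, and for Hnrnpdl -0.16 and -0.57. Each rests on a single mouse on 1 side. Over the 83 genes, 39 were above 0 in both sexes, 14 below 0 in both and 30 opposite. The same split was not counted over all genes, so it is a description. In limma 0 of the 83 differed between females and males, where 0.0275% of all genes did, and 10 had an unadjusted p under 0.05, against 10.6% of all genes. In the fit with an interaction term 0 of 83 passed, where 0.0055% of all genes did, and 7 had an unadjusted p under 0.05, against 5.04% of all genes. Hnrnpdl and Hnrnpk were among those 7. For Hnrnpk the difference was 0.41 in females and -0.12 in males.

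The counts were read again without the mice that carry most weight. Mutant 191 was the only male mutant and wild-type mouse 161 the only wild-type female. Without mutant 191, 3 members were higher and 0 lower, beside 1.61% and 2.25% of all genes. Without mouse 161 there were 4 higher and 1 lower, beside 1.96% and 2.79%. With genotype alone in the fit the counts were 8 and 2, beside 7.66% and 7.5%. With genotype alone and without mouse 161 they were 6 and 3, beside 6.12% and 7.07%, and without mutant 191 they were 5 and 3, beside 6.63% and 7.1%. Without wild-type mouse 170 there were 6 higher and 0 lower, beside 6.22% and 5.61%.

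More than 1 probe set was on the array for 60 of the 83 genes, and these often differed in sign: 34 of the 60 had a probe set opposite to the one used. Tested among all 45037 non-control probe sets, of which 6.7% passed, 11 of the 234 probe sets were higher and 1 was lower. Of the 6 changed genes with several probe sets, 3 had another that passed in the same direction. The second probe set of Snrpb had a log2 change of 0.61 (limma adjusted p over probe sets = 0.00549). The other probe sets of Snrpa1 had 0.42 (0.0223) and 0.27 (0.328). All 6 of Srsf3 were above 0, and 1 passed, at 0.39 (0.0286), which was not the one representing the gene.

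Other genes were read less uniformly. The 4 probe sets of Sf3b6 lay between 0.12 and 0.42, with 1 passing. Those of Hnrnpdl ran from -0.50 to 0.34, none passed among probe sets, and their mean had a change of -0.15 (adjusted p over genes = 0.335). The other probe sets of Rbm27 were at -0.11 and -0.02. Rbm5 had 5 probe sets, all below 0, from -0.41 to -0.09.

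Dimmer probe sets of 3 genes passed although the one representing the gene did not. The 4 probe sets of Srsf6 were all above 0 (0.32 to 0.52), and 2 passed (adjusted p = 0.0146 and 0.0330). Of Srsf10, an SR protein that represses splicing when dephosphorylated, 1 probe set measured 6.58, 6.31, 6.63 and 6.84 in the mutants and 6.20, 5.92, 6.15 and 5.98 in the wild-type mice. These groups did not overlap and the change was 0.57 (adjusted p = 0.0367), while the representing probe set had 0.05. Rbm25, a factor tied to the U1 particle, had probe sets that went opposite ways. The representing set measured 9.44, 9.38, 9.26 and 9.46 in the mutants and 9.16, 9.16, 9.10 and 9.14 in the wild-type mice. The other measured 8.14, 8.11, 8.41 and 8.32 against 8.81, 8.71, 8.94 and 8.89. In both the groups did not overlap. The changes were 0.27 (adjusted p among probe sets = 0.109) and -0.56 (0.0138). Srsf10 and Rbm25 are named after their values were seen, and which transcript forms these probe sets read was not tested.

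**Figure D4:**
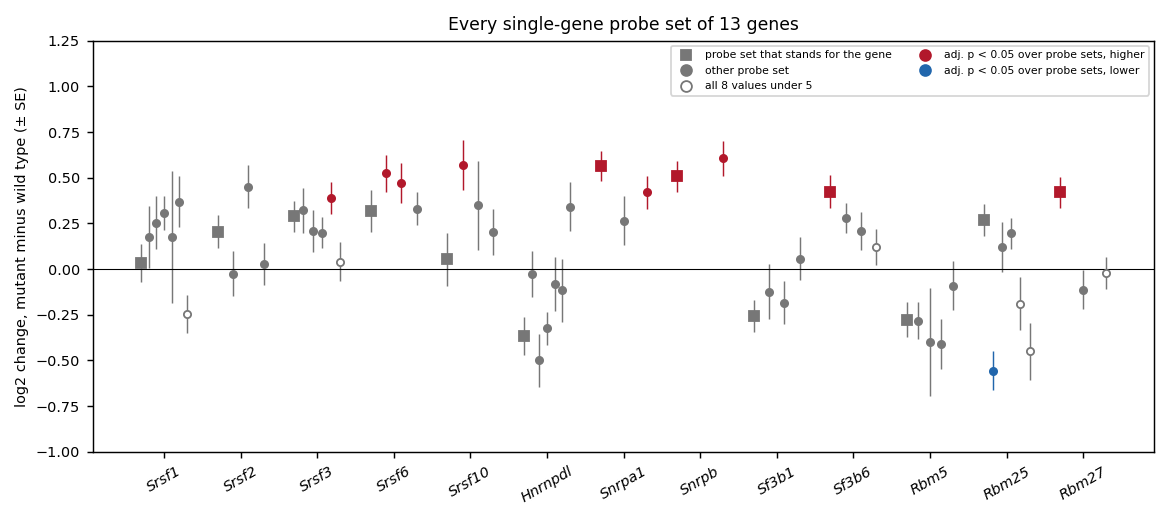
Log2 change ± SE (mutant minus wild type, n = 4 and 4) of each probe set of 13 genes. Squares mark the probe set that represents the gene and open symbols those whose 8 values were all under 5. Srsf3, Srsf6 and Rbm5 are among those with all probe sets on 1 side of 0, and Rbm25 has sets between -0.56 and 0.27.

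Promoter sequences from RefSeq (GRCm38.p6) were matched by Entrez gene identifier to 71 of the 83 genes. They are shown for the changed genes Srsf3, Srsf12, Snrpa1, Sf3b6 and Hnrnpdl, to set the regulatory letters of genes that rose beside those of the gene that fell. Each is the 250 bases before the annotated start, on the gene's strand, 5′ to 3′. Capitals mark matches, on either strand, to 5 short motifs. These are TATAAA (the TATA box), the CCAAT box of those letters, the GC box with the letters GGGCGG, the ETS type motif with the letters CCGGAAG, and the core of the CRE type motif with the letters TGACGT.
Srsf3, chr17:29032410-29032659, plus strand: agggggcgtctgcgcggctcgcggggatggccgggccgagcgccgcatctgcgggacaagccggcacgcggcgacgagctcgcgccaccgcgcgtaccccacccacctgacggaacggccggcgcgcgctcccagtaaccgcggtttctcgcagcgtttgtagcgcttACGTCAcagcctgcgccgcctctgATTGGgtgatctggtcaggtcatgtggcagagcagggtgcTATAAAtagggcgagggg
Srsf12, chr4:33209022-33209271, plus strand: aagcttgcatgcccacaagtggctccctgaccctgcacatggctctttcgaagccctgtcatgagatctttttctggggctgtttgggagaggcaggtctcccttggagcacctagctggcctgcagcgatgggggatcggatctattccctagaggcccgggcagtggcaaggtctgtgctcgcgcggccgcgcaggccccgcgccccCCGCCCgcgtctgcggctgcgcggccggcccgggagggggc
Snrpa1, chr7:66060086-66060335, plus strand: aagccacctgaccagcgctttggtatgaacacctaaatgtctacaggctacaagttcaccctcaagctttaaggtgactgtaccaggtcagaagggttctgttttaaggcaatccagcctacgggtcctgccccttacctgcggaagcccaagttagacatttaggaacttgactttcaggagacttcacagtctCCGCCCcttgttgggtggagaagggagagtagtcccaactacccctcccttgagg
Sf3b6, chr12:4817358-4817607, plus strand: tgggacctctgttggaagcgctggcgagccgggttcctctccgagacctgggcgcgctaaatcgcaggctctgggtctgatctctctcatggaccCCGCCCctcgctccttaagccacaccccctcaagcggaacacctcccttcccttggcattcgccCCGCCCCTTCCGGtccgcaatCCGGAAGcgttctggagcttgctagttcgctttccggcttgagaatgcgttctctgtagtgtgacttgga
Hnrnpdl, chr5:100039223-100039472, minus strand: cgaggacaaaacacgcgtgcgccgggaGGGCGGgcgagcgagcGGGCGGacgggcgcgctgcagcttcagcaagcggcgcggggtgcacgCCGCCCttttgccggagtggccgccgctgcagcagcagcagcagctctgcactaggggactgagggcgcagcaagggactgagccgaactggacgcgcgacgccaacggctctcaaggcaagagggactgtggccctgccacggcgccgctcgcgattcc

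The Srsf3 stretch held TGACGT 82 bases before the start, CCAAT 58 and TATAAA 18 bases before it. That of Sf3b6 held CCGGAAG at 85 and 70 and GGGCGG at 155 and 91 bases, and the matches at 91 and 85 lie directly next to each other. Snrpa1 and Srsf12 had 1 GGGCGG each, at 55 and 41 bases, and Hnrnpdl had 3, at 223, 207 and 160. So GGGCGG stood in 3 of the 4 promoters shown of genes that rose and in that of the gene that fell. Rbm27 and Snrpb also rose, but no promoter of theirs is shown, so this count does not cover them. Changed genes on chromosome 18, where Rbm27 lies, were left out of the display by choice.

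Over the 91 promoters of the 71 genes, 25.3% held CCGGAAG, against 6.91% of all 32851 mouse promoters of the same length in the table. GGGCGG was in 52.7% against 32.7%, CCAAT in 41.8% against 33.9%, and TGACGT in 13.2% against 6.47%. TATAAA was in 8.79% against 12.4%. The member promoters were richer in G and C, with a median of 60.4% against 52.4% and a median of 19 against 6 CG dinucleotides. These are counts of letters, some genes have several overlapping promoters, and binding was not measured.

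The rest of the splicing machinery was read from lists drawn up by function, none of whose genes is among the 83. Of 88 measured genes on the core spliceosome list, 9 rose and 2 fell, with a median change of 0.08. The list is broader than its name. It also holds the Srpk and Clk kinases, the assembly genes Smn1 and Gemin, and Lsm1, Lsm10, Lsm11, Ncbp1, Ncbp2, Eif4a3 and Casc3. None of these passed. The 11 that passed were 12.5% of the list, beside 12.4% of all genes. At an unadjusted p under 0.05 there were 21 higher and 7 lower, beside 14% and 11.8% of all genes. Snrnp48, a protein of the U11/U12 particle of the minor spliceosome, measured 8.02, 8.25, 8.11 and 8.42 in the mutants and 7.60, 7.36, 7.25 and 7.22 in the wild-type mice. The groups were well apart, and the change was 0.84, or 1.79-fold (limma adjusted p = 0.00231). Prpf31, of the U4/U6 particle, rose by 0.66 (adjusted p = 0.0031), and Isy1, of the catalytic complex, fell by 0.52 (0.00432). On the mean of their probe sets these 2 changes were 0.16 and -0.14 and did not pass (0.401 and 0.365). Without mutant 191, 0 of the 88 passed in either direction, in a fit where 1.61% of all genes were higher and 2.25% lower, and Snrnp48 had 0.53 (0.0591).

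Of 58 other measured splicing regulators, 3 rose and 2 fell, with a median change of 0.03. The 5 that passed were 8.62% of the list, beside 12.4% of all genes. At an unadjusted p under 0.05 there were 12 higher and 9 lower, beside 14% and 11.8% of all genes. Rbfox1, a neuronal splicing factor that binds GCAUG, measured 11.14, 11.10, 11.21 and 11.38 in the mutants and 11.64, 11.83, 11.74 and 11.80 in the wild-type mice. All mutants were below all wild-type mice, and the change was -0.45, or 1.37-fold lower (limma adjusted p = 0.00439). Without mutant 191 or wild-type mouse 161 the adjusted p was 0.0506 and 0.0775. Syncrip (hnRNP Q), an hnRNP that the naming rule does not take in, rose by 0.41 (0.0241), and averaged over its probe sets had 0.10 (0.605). Its call was also lost without wild-type mouse 161 (0.378) or 200 (0.0534). Tial1, a binder of U-rich RNA, rose by 0.38 (0.0126) in its brightest probe set and had -0.34 (0.0112) on the mean of its 5 probe sets, so its direction turned with that choice. Without mutant 191 or wild-type mouse 161 its adjusted p was 0.207 and 0.0514. Elavl1 (HuR) was the other regulator that rose and Sfpq (PSF), at -0.60, the other that fell, both named after their values were seen.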

How the data were processed

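The authors' deposited values are log2 signals, 1 per probe set and array, made with RMA and affy per the submitters' processing notes (versions not given in the sources used here). The method forces the arrays to 1 distribution, so a shift shared by most genes cannot be seen. Of 45037 non-control probe sets, 34945 had 1 gene symbol, 932 several and 9160 none in the platform annotation, and those with 1 were used.

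The test was lmFit and eBayes in limma 3.58.1 (R 4.3.3) with genotype and sex as terms, over all 18193 genes with Benjamini-Hochberg adjustment. It was tested on simulated data. Adjusted p under 0.05 counted as rose or fell. The 95% intervals come from the moderated fit. The labels' mouse numbers name separate animals, 1 array each, whose number limits the precision.

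The genes and lists were chosen with earlier results of these data known. Named genes were the 10 largest rises and falls past the threshold, the 2 lowest adjusted p and highest level per family, fixed picks (Srsf1, Srsf2, Srsf3, Hnrnpa1, Hnrnpa2b1, Hnrnpk, Snrpn, Snrpb, Sf3b1, Rbm3, Rbm17), outliers, and the 3 lowest adjusted p of each other splicing list. Other genes named with values were chosen after their values were seen. Rbm3 and protein sequences were not analysed here. Blood markers had 0 of 2 changed.

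Alternatives were genotype alone, a trended and robust prior, renewed quantile normalization, median centring, dimmer genes left out, probe sets averaged per gene, values floored at 5 (log2 of 32), omission of each mouse, mouse 161 or 191 left out with genotype alone, every probe set, and thresholds of 0.01 and 0.1.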

Additional observations from a re-analysis of the deposited data

Results flagged for a closer look

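In 11 of the 166 groups of 4 mice (83 genes in 2 genotypes), 1 mouse lay far from the other 3, judged by its gap to the nearest mouse as a share of the group's range. Chance alone gives about 1 in 20 groups. Wild-type mouse 170 and mutant 153 were the far mouse in 3 genes each, mutant 191 in 2, and mutant 154 and wild-type mice 161 and 180 in 1 each.

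Of the changed genes, Snrpa1 was concerned, with mutant 191 at 8.89 against 8.46 to 8.52 (share 0.862). Mutant 191 was also high in Rbm7, which takes part in nuclear RNA decay, at 9.25 against 9.09 to 9.11 (0.930). Mutant 153 was high in Rbm17, at 8.78 against 8.49 to 8.52 (0.900), and in Rbm46, at 3.77 against 3.32 to 3.35 (0.947). It was low in Sf3a1, a subunit of SF3A, at 7.72 against 8.07 to 8.10 (0.934). Mutant 154 was high in Rbm5, at 10.11 against 9.88 to 9.92 (0.838).

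Wild-type mouse 170 was high in Hnrnpul2, at 9.60 against 9.48 to 9.50 (0.845), in Rbm12b2, at 4.86 against 4.55 to 4.56 (0.962), and in Rbm24, at 8.05 against 7.86 to 7.87 (0.953). Wild-type mouse 161 was low in Hnrnpr, at 9.82 against 10.07 to 10.12 (0.834), a gene with a log2 change of 0.23 and an adjusted p of 0.0896. Wild-type mouse 180 was high in Rbm4b, at 5.16 against 5.01 to 5.02 (0.957). Rbm12b2 and Rbm46 had all values under 5.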

How the results depend on the processing

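The median log2 change of the 83 genes stayed between 0.05 and 0.10 in all alternatives. Part of this was fixed in advance. The trended and robust prior leaves each log2 change as it was, and median centring shifts all genes by the same amount. Averaging cannot alter the change of a gene with 1 probe set, such as Srsf12. Counts moved more, and none of the 7 calls held in all 17 alternatives: Snrpb held in 16, Snrpa1 and Rbm27 in 15, Sf3b6 in 14, Srsf12 in 12, Hnrnpdl in 9 and Srsf3 in 8. Members higher were 12 with a trended and robust prior, 11 with dimmer genes left out and 13 at an adjusted p under 0.1. The share of all genes that passed is not given for these settings, nor beside the family and list counts below. A setting can change the calls over all genes too, so these counts describe the settings. Members lower were 2 with genotype alone and with the floor, 3 with the trended prior and with mouse 161 or 191 left out and genotype alone, 5 with dimmer genes left out, and 0 and 4 at 0.01 and 0.1. Leaving out each mouse gave 3 to 8 higher and 0 to 1 lower. Without mutant 191 there were 3 higher and 0 lower and without wild-type 161 there were 4 and 1.

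By family, Srsf genes higher were 1 with quantile normalization, the floor, or 191 left out and genotype alone, and 0 to 2 leaving out each mouse. Hnrnp genes higher were 2 with the trended prior, dimmer genes left out or the floor, and 1 with 161 or 191 left out and genotype alone. Hnrnp genes lower were 0 on the mean of probe sets, 2 without 161 and genotype alone, and 0 to 1 leaving out each mouse. Snrp genes higher were 1 with 161 or 191 left out and genotype alone, and 1 to 2 leaving out each mouse. Sf3 genes higher were 2 on the mean of probe sets or with the floor, 0 with 161 or 191 left out and genotype alone, and 0 to 1 leaving out each mouse. Sf3 genes lower were 1 with the trended prior or dimmer genes left out. Rbm genes higher were 3 with genotype alone, 4 with the trended prior or dimmer genes left out, 2 with median centring, the floor, or 161 or 191 left out and genotype alone, and 0 to 4 leaving out each mouse. Rbm genes lower were 1 with genotype alone, the trended prior, the mean of probe sets, the floor or 161 left out and genotype alone, 3 with dimmer genes left out and 2 with 191 left out and genotype alone.

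Genes of the core spliceosome list that were higher numbered 15 with the trended prior, 14 with dimmer genes left out and 0 to 9 leaving out each mouse. Genes of that list that were lower numbered 5 with genotype alone, 4 with dimmer genes left out or 161 or 191 left out and genotype alone, and 0 to 2 leaving out each mouse. Other regulators higher were 8 with genotype alone or the trended prior, 9 with dimmer genes left out, 5 with the floor, 6 with 161 or 191 left out and genotype alone, and 0 to 4 leaving out each mouse. Other regulators lower were 6 with genotype alone or the trended prior, 5 with dimmer genes left out, 4 with 161 or 191 left out and genotype alone, and 0 to 2 leaving out each mouse. Tial1 turned to -0.34 (adjusted p = 0.0112) on the mean of its probe sets. The causes were not tested. No paired analysis was possible because the groups share no replicate numbers.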
